A study of Mus musculus with 24 samples.

Results

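The transcriptional response of HC11 cells to lactogenic hormones while mPINC was knocked down was read from 5 of the 24 arrays in the series, the 2 siPINC arrays without hormones (−LH) and the 3 siPINC arrays with them (+LH), chosen by their sample titles. HC11, an immortal mouse mammary epithelial line, can be induced to make milk proteins in culture; its parent, the Comma-D line, was established from Balb/c mammary tissue of mid-pregnancy. Both groups had been transfected with 10 nM of siPINC, a pair of siRNAs against all known splice forms of mPINC, a long noncoding RNA of the mammary gland, including the DCR2 forms that lack a conserved exon region. The +LH cells were exposed to lactogenic hormones, which the labels give as hydrocortisone, insulin and prolactin, and the −LH cells were not. In the methods insulin is part of the growth, priming and hormone media alike, and prolactin and hydrocortisone are what the hormone medium adds. The same contrast was available for siNEG, a negative control siRNA, and for siPINC1.0/1.6, which shares 1 siRNA with siPINC but leaves DCR2 alone, each with 2 −LH and 3 +LH arrays. The remaining 9 arrays came from cells overexpressing constructs and were not compared here.

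How long the array cells were exposed to hormones, and which medium the −LH cells were kept in, is not given in the sources used here. According to the methods, growth medium held EGF and insulin while the priming and hormone media lacked EGF. The contrast between −LH and +LH therefore cannot be told apart from any change of medium that went with it. Replicates were described as biological, but whether they came from separately started cultures is not given, so that p-values measure the spread between these arrays.

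Lactogenic differentiation joins several signals. Prolactin binds its receptor, the kinase Jak2 phosphorylates Stat5, and Stat5 dimers enter the nucleus and switch on milk protein genes, with the ETS factor Elf5 acting in the same direction. Hydrocortisone activates the glucocorticoid receptor, which binds DNA and also cooperates with Stat5 at milk protein genes, and insulin supports growth and synthesis. EGF acts in the opposite direction, keeping mammary cells in cycle through ERK, and its removal precedes differentiation in this culture system.

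Each array measured 55681 probes, of which 26616 could be given a gene symbol (20169 genes, 1 probe standing for each). Between 24489 and 28409 probes were flagged well above background by the scanner software on the siPINC arrays, no spot was saturated, and replicates correlated at 0.995 (−LH) and 0.9926 to 0.9945 (+LH) over 28450 detected probes. Values are given as normalized log2 signal, and a difference of 1 is a doubling of signal. One fact of the layout touches every hormone result below: both −LH arrays lay on slide 1 and the +LH arrays on slide 2, so in siPINC cells hormone and slide cannot be told apart. A single siNEG +LH array shared slide 1 with the −LH arrays, and through it a slide term could be fitted to the 15 siRNA arrays. Its median size was 0.14. The array on which this term rests, siNEG +LH replicate 1, had 24021 probes well above background, the fewest in the series. The other siNEG +LH arrays had 28139 and 27057. Whether this lower detection shaped the slide term was not tested. Hormone response counts with the slide term are given for a gene group where they moved by more than 1.5 times.

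The targeted RNA was checked first. The mPINC probe read 6.39 and 6.16 on the siPINC −LH arrays and 4.76, 4.20 and 4.15 on the +LH arrays, where 1 of 3 was well above background. In siNEG cells the same probe read 7.41 and 7.48 without hormones and 4.96, 4.93 and 4.72 with them. mPINC was thus lower in siPINC than in siNEG cells without hormones (log2 difference -1.17, adjusted p = 0.0276 in limma), while with hormones, close to background, the difference was -0.50 (adjusted p = 0.243). The mPINC signal fell with hormones in siPINC cells, with a fitted change of -1.90 ± 0.18 (SE). Its size depended on how background was treated: the fitted change was -0.55 after normexp background correction and -0.93 in the series matrix values. No comparison of the fall with that in siNEG cells is made, because 1 of 3 siPINC +LH arrays measured the RNA. Which splice forms the probe reads was not worked out here.

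A large part of the transcriptome of siPINC cells differed between the −LH and +LH arrays. Of all probes 28.0% passed an adjusted p of 0.05 (15610 probes, 7498 higher and 8112 lower with hormones). Counted by gene, 21.1% rose (4265) and 20.5% fell (4134), and the median change over all genes was 0.01. Of 11705 genes well above background on all 5 arrays, 7452 were called with no overlap between the groups, so a lack of overlap was common. These shares are the background against which each gene group below is read. Scaling the arrays to their 75th percentile instead of quantile normalization moved the median of all probes from 0.007 to 0.231 and gave 3564 genes higher and 4496 lower. With the slide term 3188 genes rose and 2746 fell.

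The 10 steepest rises among probes well above background on all 5 arrays belonged to genes of varied function. Dcn, the matrix proteoglycan decorin, read 5.31 and 5.08 without hormones and 11.95, 11.85 and 11.86 with them, a rise of 6.69 ± 0.12 (adjusted p = 1.48e-10). Cxcl17, a mucosal chemokine, rose by 6.44 ± 0.13, Ptgds, a prostaglandin D synthase, by 6.05 ± 0.17, and Penk, the enkephalin precursor, by 5.85 ± 0.11. Ccl6 rose by 5.59, Cyp2f2 by 5.30, Pdzk1ip1 by 5.16, the interferon-induced Oas2 by 5.13, Inpp5j by 4.99 and Atp1b1, the beta subunit of the sodium pump, by 4.85. The groups of arrays did not overlap for any of these 10 genes, which the naming rule required.

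The steepest falls were led by an ERK-induced transcription factor. Etv4 read 11.76 and 11.82 without hormones and 6.80, 6.64 and 6.75 with them, a fall of 5.06 ± 0.08 (adjusted p = 8.41e-11), and its other probe also fell. Cdh15, a cadherin, fell by 5.04, Ramp3, a partner of calcitonin-family receptors, by 4.83, Akr1c18 by 3.91, the ERK phosphatase Dusp4 by 3.82 and Mreg by 3.79. Krt17, a keratin of basal and stressed epithelium, fell by 3.72, Lhfpl2 by 3.71, Snai1, a repressor of epithelial genes, by 3.70 and the IGF-binding protein Igfbp2 by 3.62.

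Some genes were measurable on one side only. For these the fold is a lower bound, the mean of the bright group set against a floor on each dim array, namely the dimmest signal that the scanner software still flagged as well above background, or the probe itself where it read higher. A probe can read above this floor without the flag, so the bound holds against the floor and not against a detection limit of each probe. Ogn, the small matrix proteoglycan osteoglycin, read 1.98 and 2.17 without hormones and 13.38, 13.38 and 13.43 with them, at least 691-fold higher (adjusted p = 3.8e-12). Omd, its relative osteomodulin, was at least 151-fold higher, Csn2 at least 143-fold, Sult1a1 at least 76.4-fold and Arl14epl at least 40.5-fold. In the other direction the cytokine Il6 read 8.94 and 8.97 without hormones and 3.00, 3.37 and 3.82 with them, at least 32.3-fold lower. Sprr1b, a cornified envelope precursor, was at least 32.0-fold lower, Gzmc 26.0-fold, Prkg2 20.6-fold and 4933402N22Rik 19.9-fold, each as a lower bound. In all, 120 genes were not well above background on either −LH array but were on every +LH array and rose, and 190 genes showed the reverse. More probes were flagged on the −LH arrays (27892 and 28409) than on the +LH arrays (24489 to 27436). The part of this difference in the counts was not tested.

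Of 16 milk protein genes measured, 9 rose and 1 fell, and their median was 1.12. Csn2, which encodes β-casein, read 1.90 and 1.91 without hormones, at background, and 11.02, 11 and 11.34 with them (adjusted p = 1.5e-10). Csn1s1, an α-casein, read 1.90 and 1.93 and then 6.44, 6.99 and 7.09, at least 7.33-fold higher. Csn3, κ-casein, was already measurable without hormones at 6.98 and 7.13 and reached 10.19, 10.32 and 10.51, a rise of 3.29 ± 0.16, although its second probe did not pass the test (0.39). So the caseins without hormones ranged from background to a clear signal, and with hormones none of these 3 overlapped its −LH values.

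The promoter of Csn2 is shown because it carries the sequence that Stat5 dimers recognise, with that of Cish, a feedback inhibitor that Stat5 induces, for comparison. Both are RefSeq sequences of build GRCm38.p6 from 250 bases before to 50 after the start, read 5′ to 3′ along the gene (Csn2 chr5:87699376-87699675, minus strand; Cish chr9:107296409-107296708, plus strand), whereas the arrays were annotated on mm9. Capitals mark TTCNNNGAA, searched on both strands.
Csn2: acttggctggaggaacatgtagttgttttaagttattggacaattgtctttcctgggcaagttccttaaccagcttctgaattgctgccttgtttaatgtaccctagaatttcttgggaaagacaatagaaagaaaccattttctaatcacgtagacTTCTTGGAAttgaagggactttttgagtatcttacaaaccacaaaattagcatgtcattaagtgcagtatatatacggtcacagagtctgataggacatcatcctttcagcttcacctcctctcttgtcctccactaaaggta
Cish: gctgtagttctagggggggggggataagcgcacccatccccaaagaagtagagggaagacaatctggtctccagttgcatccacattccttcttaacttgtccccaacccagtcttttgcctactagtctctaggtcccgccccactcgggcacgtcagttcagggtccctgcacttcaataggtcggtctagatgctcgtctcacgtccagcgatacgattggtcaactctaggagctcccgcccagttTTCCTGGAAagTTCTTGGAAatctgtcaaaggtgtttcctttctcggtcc
The Csn2 window held 1 match and the Cish window 2. Over all 32851 promoter entries of this length 8.30% held the motif, against 6 of 15 entries of the milk protein genes (40%: Csn1s1, Csn1s2a, Csn2, Glycam1, Pigr and Pip) and 3 of 19 of the prolactin and Stat5 genes (Cish, Prlr and Socs3). A match describes letters in a window and no more, and 2 of the 6 milk protein genes with one, Csn1s2a and Glycam1, were not called.

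Minor milk and secretory proteins rose from levels that were already high. Pip, prolactin-induced protein, read 13.24 and 13.15 without hormones and 16.46, 16.44 and 16.47 with them, a rise of 3.26 ± 0.05. Wfdc18, a whey-type protease inhibitor, rose by 2.96 ± 0.07 from 15.57 and 15.56 to 18.50, 18.58 and 18.50. Ltf, the iron-binding lactoferrin, rose by 1.85 ± 0.12, Mfge8, a milk fat globule protein, by 1.65 ± 0.07 and Mal, a membrane sorting protein, by 1.05 ± 0.07. In each of these the lowest +LH array stood above the highest −LH array.

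Other milk genes did not take part. Wap, whey acidic protein, was not well above background on any of the 5 arrays (1.88 and 2.74, then 3.40, 2.54 and 2.06, adjusted p = 0.628), and neither was Glycam1. Lalba, α-lactalbumin of the lactose synthase, read 6.41 and 6.17 and then 6.02, 6.28 and 6.29 (-0.09, adjusted p = 0.859), with overlapping groups. Csn1s2a and Csn1s2b did not pass the test (adjusted p = 0.554 and 0.203). Cp, the copper carrier ceruloplasmin, fell by 0.87. Pigr, which carries antibody into milk, rose by 0.60 (adjusted p = 0.0262), but this call was lost with the slide term (0.09, adjusted p = 0.902) and without either −LH array or +LH replicate 1 or 2.

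Components of the prolactin pathway rose as well, at more modest size. Of 14 genes 7 rose and 2 fell, with a median of 0.49 and the same counts under the 75th percentile scaling and the slide term. Elf5 read 8.61 and 8.66 without hormones and 10.90, 11.04 and 10.99 with them, a rise of 2.34 ± 0.08 (adjusted p = 5.01e-09). Cish read 7.09 and 7.0 and then 9.14, 9.10 and 9.15, a rise of 2.08 ± 0.08. Ghr, the growth hormone receptor, rose by 1.94, Stat5a by 1.20, Jak2 by 0.95, the feedback inhibitor Socs2 by 0.91 and Stat5b by 0.69. The receptor itself, Prlr, read 10.53 and 10.54 and then 10.68, 10.70 and 10.83 and did not pass the test (0.20, adjusted p = 0.0848). Socs3, which restrains cytokine receptors that signal through Stat3 as well as the prolactin receptor, went the other way, from 12.43 and 12.37 to 10.90, 10.68 and 10.64, a fall of 1.66 ± 0.12.

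**Figure D1:**
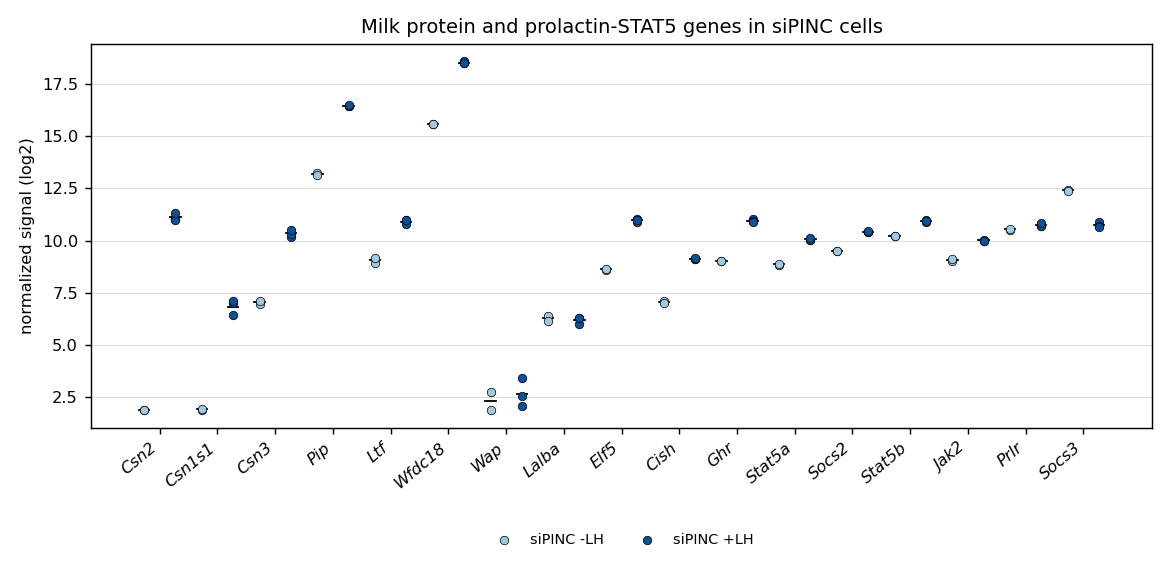
Normalized log2 signal (y axis) of 17 milk protein and prolactin pathway genes on each siPINC array, −LH (2 points) and +LH (3 points), with bars at the group means. Csn2 moves from background to about 11, Cish and Elf5 rise by about 2, Wap stays near background and Socs3 falls.

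Of 20 targets of the glucocorticoid receptor 13 rose and 2 fell, and the median was 0.88. Tsc22d3, which encodes the glucocorticoid-induced leucine zipper, read 9.78 on both −LH arrays and 13.69, 13.61 and 13.75 with hormones, a rise of 3.90 ± 0.07 (adjusted p = 1.77e-10). Fkbp5, a chaperone of the receptor, rose by 2.90, the zinc finger factor Zbtb16 by 2.66 and the clock gene Per1 by 2.48. None of the 4 overlapped between groups, as held for 7452 of the 11705 genes measured on all 5 arrays. The receptor gene Nr3c1 rose by 0.68. Against the direction of the list, Cdkn1c, a cell cycle inhibitor that glucocorticoids can induce, fell by 3.57 ± 0.32, from 8.29 and 8.26 to 4.96, 4.19 and 4.96, where 2 of 3 arrays were well above background.

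Of 21 EGF and ERK targets 12 fell and 4 rose, with a median of -1.40. Egr1, Spry1, Spry2, Spry4 and Dusp5 were not called, with differences between -0.25 and 0.02. After Etv4, its relative Etv5 fell by 3.18 ± 0.09 and Dusp6, a feedback phosphatase that ERK induces, by 2.47 ± 0.05, from 13.29 and 13.27 to 10.84, 10.83 and 10.77. Ligands of the EGF receptor fell too. Areg read 8.47 and 8.26 and then 5.07, 4.2 and 3.25, and Hbegf 7.07 and 7.06 and then 3.87, 4.40 and 4.35, each well above background on 1 of 3 +LH arrays, so that no size is given, and Ereg fell by 2.16. Myc fell by 2.95, from 10.92 and 10.99 to 8.09, 7.84 and 8.09, and the AP-1 subunit Fosl1 was at least 3.8-fold lower. The 4 that rose were Phlda1, Ier3, Fos and Egfr, with Egfr at 0.28 losing its call without −LH replicate 2, under the 75th percentile scaling (adjusted p = 0.0926) and with the slide term (0.0898).

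Cell cycle genes fell almost without exception. Of 24 DNA replication genes 23 fell and none rose (median -2.05), and of 22 mitosis genes 21 fell and none rose (median -2.06), against 20.5% of all genes that fell. The 2 not called, Ccne2 and Aurkb, were not well above background on any siPINC array. Ccne1, the cyclin of the step into S phase, read 12.33 and 12.44 without hormones and 8.90, 8.80 and 8.84 with them, a fall of 3.54 ± 0.09. Mcm5, a subunit of the replicative helicase, fell by 2.90 ± 0.07 and its partner Mcm6 by 1.90 ± 0.06. In mitosis Plk1 fell by 2.16 ± 0.08, the checkpoint kinase Bub1b by 2.34 ± 0.06 and Mki67, the Ki-67 antigen, by 1.63 ± 0.08. Cdk1 fell by 1.26 (adjusted p = 0.0107), a call that was lost with the slide term (adjusted p = 0.159) and without either −LH array, and 1 of its 3 probes passed.

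No matching rise of CDK inhibitors was seen. Of 10 genes in that list, which includes the retinoblastoma family, 3 rose and 5 fell, or 1 and 3 with the slide term. Cdkn2b (p15) rose by 0.50 and Cdkn1b (p27) by 0.28, the latter not without −LH replicate 1 and not with the slide term (adjusted p = 0.124). Cdkn1a (p21) fell by 0.44, but its 2 probes moved in opposite directions and the call was lost with the slide term (adjusted p = 0.611). Rbl1, a relative of the retinoblastoma protein, fell by 1.47.

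Promoters of 2 mitosis genes are shown for the short element TTTGAA, known from late cell cycle genes, in capitals and searched on both strands (RefSeq, GRCm38.p6; Plk1 chr7:122159185-122159484, plus strand; Mki67 chr7:135716330-135716629, minus strand).
Plk1: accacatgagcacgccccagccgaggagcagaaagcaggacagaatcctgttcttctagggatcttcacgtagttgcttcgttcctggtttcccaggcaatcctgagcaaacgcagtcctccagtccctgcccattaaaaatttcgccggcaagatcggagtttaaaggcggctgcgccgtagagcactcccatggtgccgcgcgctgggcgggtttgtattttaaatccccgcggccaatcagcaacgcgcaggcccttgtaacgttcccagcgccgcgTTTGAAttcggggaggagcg
Mki67: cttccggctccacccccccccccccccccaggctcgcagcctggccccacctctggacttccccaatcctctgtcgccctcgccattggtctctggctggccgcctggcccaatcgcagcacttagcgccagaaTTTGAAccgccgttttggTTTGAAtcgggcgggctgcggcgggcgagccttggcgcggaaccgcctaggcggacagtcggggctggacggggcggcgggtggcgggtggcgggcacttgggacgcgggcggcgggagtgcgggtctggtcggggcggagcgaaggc
Of 17 promoter entries of the mitosis genes 12 held these letters (70.6%), against 17.9% of all entries and 3 of 22 entries of the DNA replication genes (13.6%).

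Epithelial barrier and transport genes rose. Of 19 genes 15 rose and 2 fell, with a median of 1.48, and with the slide term 10 rose. Besides Atp1b1, which read 9.61 and 9.63 and then 14.36, 14.45 and 14.61, the claudin Cldn8 rose by 4.29 ± 0.18 (1 of 2 −LH arrays well above background), the sodium channel subunit Scnn1a by 2.65 and the junction protein Ocln by 2.25. The 2 water channels measured fell, Aqp3 by 2.93, from 8.16 and 8.08 to 5.60, 5.22 and 4.74, and Aqp5 by 1.31.

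Lineage genes moved in both directions, with a rise of most luminal progenitor genes and falls of several basal keratins. Kit, the receptor that marks luminal progenitors, read 8.94 and 9.07 without hormones and 13.82, 13.71 and 13.92 with them, a rise of 4.81 ± 0.11, and the ETS factor Ehf rose by 3.09. In that list of 10 genes, 6 rose and 1 fell, Itgb3 (CD61), by 1.47. Of 12 mature luminal genes 2 rose, among them Gata3 by 0.66, and 6 fell, including Ly6a (Sca-1) by 2.34 and the oestrogen receptor Esr1 by 2.21, which was well above background on 1 array only and lost its call without −LH replicate 1. Of 16 basal genes 4 rose and 8 fell, or 2 and 7 with the slide term. Krt17 read 15.47 and 15.55 and then 11.98, 11.66 and 11.74, Krt5 fell by 2.12 and Krt14 by 0.43, the latter not called without −LH replicate 1 or +LH replicate 3. Krt15, a basal keratin, rose instead, by 2.82 ± 0.08. The luminal keratins Krt18 and Krt8 rose by 1.78 and 1.34. In bulk RNA, fewer cells of a type and less RNA per cell cannot be told apart.

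Markers of cells that the culture should lack were read beside these. Epithelial markers were well above background on all 5 arrays for 11 of 12 genes, and their summed level (log2 of the summed signal) was 17.50 on both −LH arrays and 17.29 to 17.32 with hormones. Of 6 adipocyte genes none was called and 5 were not well above background on any array, including Adipoq and Plin1 (summed 5.63 to 5.80, then 5.58 to 6.01). Of 6 endothelial genes 1 fell, Pecam1, but not with the slide term. In this list 4 were not well above background on any array, including Cdh5 and Tek, and 2 were on all 5 (summed 10.78 to 10.87, then 10.73 to 10.98). Of 7 immune genes 1 rose, Itgam by 0.45, a call lost with the slide term and without −LH replicate 2 or +LH replicate 1 or 2. Of these genes 3 were well above background on all 5 arrays and 1 on none (summed 11.72 to 11.77, then 12.04 to 12.16). The pan-leukocyte Ptprc was well above background on 1 array without hormones and none with them. Fibroblast genes did move: 5 of 6 rose, Dcn, Fap, Lum, Pdgfra and Pdgfrb, and their summed level went from 7.48 and 7.55 to 12.11, 11.99 and 12.01, while Thy1 stayed at background on all 5 arrays. The summed level was carried by Dcn. The 5 also rose in siNEG cells (median 1.41 over the list). Their part in the rises of Dcn, Ogn and Omd was not tested.

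**Figure D2:**
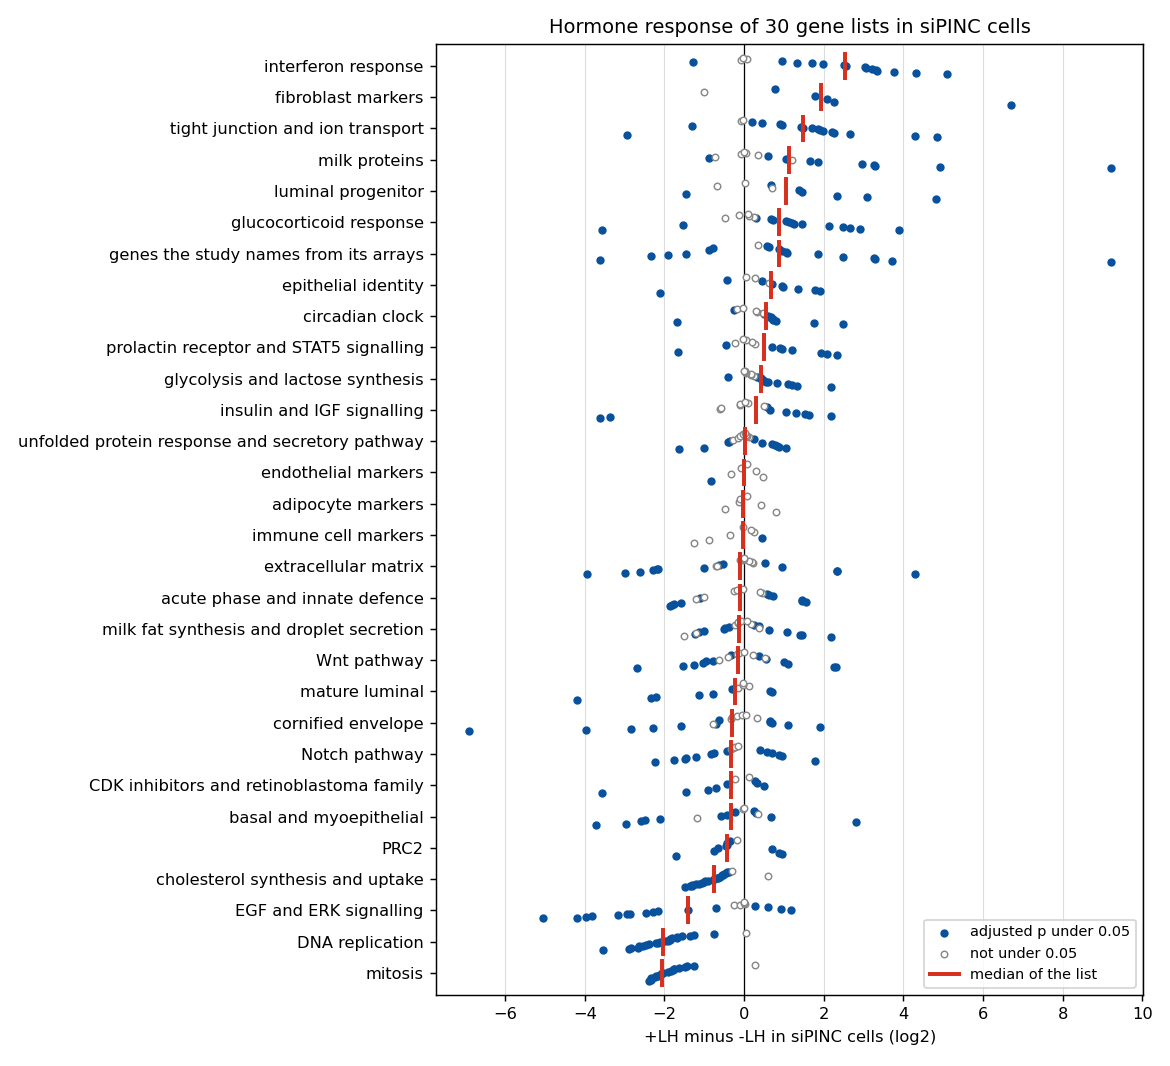
Hormone response (log2, +LH minus −LH) in siPINC cells for each gene of 30 lists (points; filled where adjusted p is below 0.05) with the list median in red. Replication and mitosis genes lie almost wholly below 0, milk proteins, glucocorticoid targets, tight junction and interferon genes mostly above it, and most signalling lists straddle 0.

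Of 23 cholesterol genes 21 fell and none rose (median -0.76), 16 of them also with the slide term. Idi1 read 12.25 and 12.34 and then 10.86, 11.08 and 11.04, a fall of 1.30 ± 0.09. Insig1, the sterol-regulated brake on this pathway, fell by 1.49, though not with the slide term (adjusted p = 0.124). Of 22 milk fat genes 7 rose and 6 fell, but 5 rose and 10 fell under the 75th percentile scaling and 4 rose and 4 fell with the slide term. Xdh, which coats milk fat droplets, rose by 1.46 and Scd1, a fatty acid desaturase, fell by 1.24. Thrsp, a lipogenic factor, rose by 2.19 (adjusted p = 0.0749 with the slide term) and fatty acid synthase, Fasn, fell by 0.47, not called without −LH replicate 1 or with the slide term.

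Subunits of the chromatin repressor PRC2 moved both ways. Of 11 genes 3 rose and 7 fell, and the counts were the same with the slide term. Ezh2, the methyltransferase of dividing cells, read 11.33 and 11.36 and then 10.63, 10.52 and 10.60, a fall of 0.76 ± 0.06 (adjusted p = 2.44e-06), while its relative Ezh1 rose from 11.93 and 11.96 to 12.83, 12.78 and 12.83, by 0.87 ± 0.06. The accessory subunit Jarid2 rose by 0.95 and Phf19 fell by 1.72. Core subunits Eed and Suz12 fell by 0.42 and 0.46, Suz12 not without −LH replicate 2 (adjusted p = 0.0523).

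Matrix and growth factor binding genes divided within families. Sparc rose by 2.33 and Postn by 2.34, while Fn1, fibronectin, fell by 2.16 and Col1a1 by 2.61. In the matrix list 5 of 23 rose and 9 fell, or 4 and 6 with the slide term. Among IGF-binding proteins Igfbp5 rose by 2.19, from 14.67 and 14.68 to 16.86, 16.85 and 16.88, whereas Igfbp2 and Igfbp3 fell by 3.62 and 3.36. Edn1, the vasoactive peptide endothelin, read 5.0 and 5.06 and then 8.71, 8.71 and 8.80, a rise of 3.71 ± 0.08, and its receptor Ednra rose by 2.48. The circadian list had 9 of 16 genes higher and 2 lower, the insulin and IGF list 7 of 16 higher and 2 lower, and the Notch, Wnt and cornified envelope lists 6, 6 and 5 higher and 8, 7 and 7 lower. With the slide term the counts were 9 and 1 for the circadian list, 4 and 5 for Notch and 6 and 4 for Wnt. Of 20 glycolysis genes 12 rose and 1 fell, but with the slide term 6 rose and 1 fell, and under the 75th percentile scaling 5 rose and 5 fell, and Ldha, Pgk1, Gpi1 and Atf4 of the unfolded protein response turned sign.

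The next question was whether the hormone response differed between siPINC and siNEG cells. This compares cells given different siRNAs, and whether a difference follows from the loss of mPINC was not tested. The test was the difference between the responses, siPINC minus siNEG, in the same limma fit. At the level of genes 0.873% passed (176 of 20169, 136 more positive and 40 more negative in siPINC cells) when the responses were compared. The count of probes, 280, was not stable. It fell to 7 (4 positive) under the 75th percentile scaling and ranged from 105 to 656 when 1 array was left out. With the slide term it was 173, the same as without siNEG +LH replicate 1, so these are not separate checks. Without siPINC −LH replicate 1 or 2 it was 656 or 531 with 182 or 168 of them positive, against 203 of 280 with all arrays, without siNEG −LH replicate 1 it was 646, and without siNEG +LH replicate 2 or siPINC +LH replicate 3 it was 105.

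Interferon-response genes held the largest positive differences. Interferons act through factors such as Stat2 and Irf9, which bind a repeated GAAA element and switch on antiviral genes. In siPINC cells 14 of 18 measured genes rose with hormones and 1 fell, with a median of 2.53, while in siNEG cells the median of the same genes was 1.13. The difference passed the test in 9 of 18, where 0.873% of all genes passed. It was positive in 18 of 18, against 9829 of all 20169 genes, and had a median of 1.49, beside a median of 0.00 over all genes. Without siPINC +LH replicate 3 the count that passed was 3, and under the 75th percentile scaling 2 of 18 passed (median difference 1.51).

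Ifit1, an RNA-binding antiviral protein, read 6.18 and 6.08 on the siPINC −LH arrays and 9.35, 9.49 and 9.57 with hormones, a rise of 3.34 ± 0.14. In siNEG cells it read 7.67 and 7.61 and then 8.91, 8.62 and 8.70, a rise of 1.11. Starting lower and ending higher, the siPINC arrays overlapped the siNEG arrays in neither condition, and the responses differed by 2.23 ± 0.20 (adjusted p = 0.00195; 0.00917 under the 75th percentile scaling, 0.00363 with the slide term, and no higher than 0.00843 without any 1 array). Isg15, the ubiquitin-like modifier, read 11.93 and 11.88 and then 13.90, 13.81 and 13.90 in siPINC cells. In siNEG cells its values were 12.73 and 12.89 and then 13.27, 12.52 and 12.92, overlapping. The difference was 1.87 ± 0.26 (adjusted p = 0.0193), past the threshold except without siPINC +LH replicate 1 or 3 and under the 75th percentile scaling (0.083).

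Oasl1, an inhibitor of the interferon regulator Irf7, was the exception in direction. It read 7.53 and 7.49 and then 6.22, 6.12 and 6.32 in siPINC cells, a fall of 1.29, and 8.39 and 8.43 and then 5.19, 5.55 and 5.36 in siNEG cells, a fall of 3.04. The smaller fall again gave a positive difference, 1.76 ± 0.15 (adjusted p = 0.00132), kept without each array in turn and under the 75th percentile scaling (0.00917). For Oas2 the difference was 1.99 ± 0.32, for the deubiquitinase Usp18 1.97 ± 0.32, for Irf7 1.66, for Gbp3 1.40, for Ifit3 1.38 and for Irf9 0.94 ± 0.10. Of these 6, Irf9 alone kept its call without each array in turn, and none passed under the 75th percentile scaling. Irf7 (adjusted p = 0.0499) lost its call without any 1 of 9 arrays and with the slide term (0.104).

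Compared at one time between siRNAs, interferon genes were on the low side in siPINC cells before hormones and on the high side after. Without hormones 5 of 18 were lower than in siNEG cells and none higher (median -0.90), where 1.55% of all genes differed, and these arrays shared a slide. With hormones 5 of 18 were higher and none lower (median 0.66), where 2.67% of all genes differed. Ifit1 was lower by 1.51 (adjusted p = 0.0017) and then higher by 0.72 (adjusted p = 0.02). Not every interferon gene followed: the chemokine Cxcl10 read 5.34 and 5.27 and then 5.16, 5.36 and 5.29 in siPINC cells and was not called, nor were Ifit2 and Gbp2. Rsad2, not above background without hormones, was at least 3.28-fold higher.

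**Figure D3:**
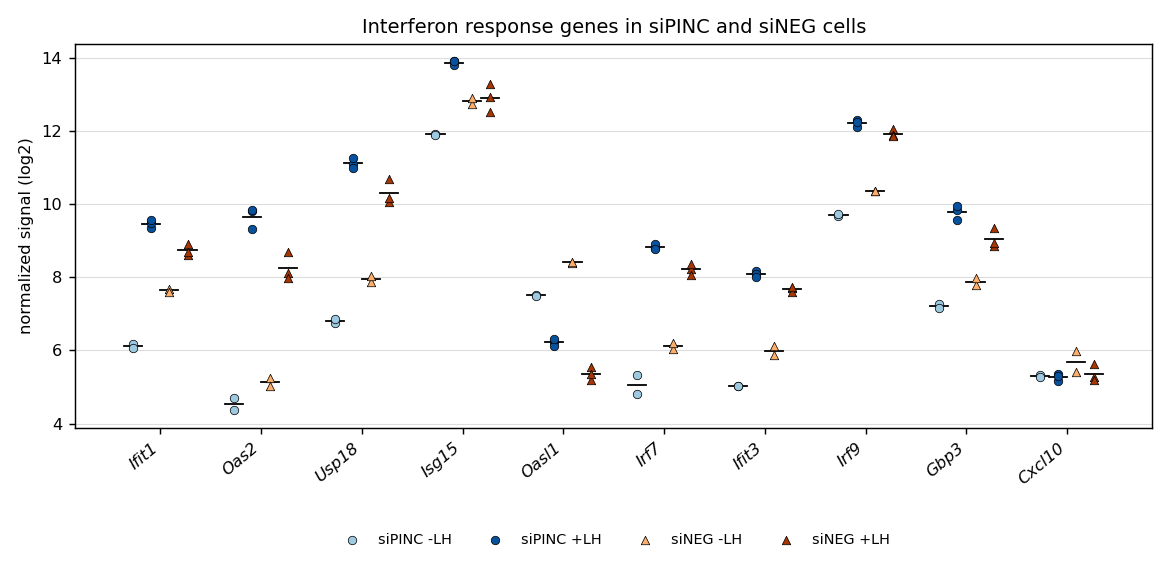
Normalized log2 signal of 10 interferon-response genes on each siPINC and siNEG array, without and with hormones. For Ifit1 and Isg15 the siPINC points lie below the siNEG points without hormones and above them with hormones, Oasl1 falls in both, and Cxcl10 stays level.

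The promoters of Ifit1 (chr19:34640639-34640938, plus strand) and Isg15 (chr4:156200769-156201068, minus strand; RefSeq, GRCm38.p6) are shown for GAAANNGAAA, the repeat that interferon-activated factors bind, in capitals and searched on both strands.
Ifit1: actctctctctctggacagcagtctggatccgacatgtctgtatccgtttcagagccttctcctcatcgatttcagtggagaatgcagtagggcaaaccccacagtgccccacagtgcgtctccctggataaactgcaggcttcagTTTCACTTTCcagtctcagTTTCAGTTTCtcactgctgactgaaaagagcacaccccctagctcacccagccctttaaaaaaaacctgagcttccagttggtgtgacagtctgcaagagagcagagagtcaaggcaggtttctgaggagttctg
Isg15: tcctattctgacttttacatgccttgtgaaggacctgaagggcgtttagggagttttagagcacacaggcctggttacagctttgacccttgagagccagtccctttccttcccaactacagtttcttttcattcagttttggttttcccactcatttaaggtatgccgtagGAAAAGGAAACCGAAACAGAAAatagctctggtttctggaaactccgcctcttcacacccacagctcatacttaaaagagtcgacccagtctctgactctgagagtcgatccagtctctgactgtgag
Ifit1 held 2 matches and Isg15 3 that overlap one another. Of 19 promoter entries of the interferon genes 10 held a match (52.6%), against 3.44% of all entries. Among these were Cxcl10 and Gbp2, which were not called, so the letters were present in genes that moved and in genes that did not.

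A part of the cell cycle genes fell less in siPINC than in siNEG cells. The median fall of the mitosis genes was 2.06 in siPINC and 2.59 in siNEG cells on the log2 scale, and of the replication genes 2.05 and 2.50. The difference was positive for 21 of 22 and 23 of 24 genes, against 9829 of all 20169 genes. It passed the test for 9 and 4, where 0.873% of all genes passed, and for 7 and 2 with the slide term. Bub1b read 10.47 and 10.52 and then 8.14, 8.17 and 8.16 in siPINC cells, against 10.43 and 10.49 and then 7.40, 7.45 and 7.37 in siNEG cells. The siRNAs overlapped without hormones and stood apart with them, and the falls differed by 0.71 ± 0.08 (adjusted p = 0.00986). For Ccnb2, a mitotic cyclin, the difference was 0.73 ± 0.08 (adjusted p = 0.00911), and neither call was lost without any 1 array.

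Mcm6 differed by 0.64 (adjusted p = 0.0209), Mki67 by 0.66 and Top2a, the topoisomerase of mitotic chromosomes, by 0.65, each losing its call without some arrays, siNEG +LH replicate 2 and siPINC +LH replicate 1 among them, and Top2a also with the slide term (adjusted p = 0.0669). Without siPINC +LH replicate 1 the counts were 6 of 22 and 0 of 24. Under the 75th percentile scaling no gene of either list passed, although the medians of the difference, 0.59 and 0.39, were the same. Read with hormones only, 19 of 22 mitosis genes and 17 of 24 replication genes were higher in siPINC than in siNEG cells, against 390 of all 20169 genes. Without hormones none of either list differed.

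Differences in the negative direction were fewer with all arrays, 77 of 280 probes, but the more numerous without siPINC −LH replicate 1 (474 of 656) or 2 (363 of 531). Pip, a milk gene, had the smallest adjusted p: it read 13.24 and 13.15 without hormones in siPINC cells against 11.51 and 11.48 in siNEG cells, and reached 16.46, 16.44 and 16.47 against 16.09, 16.03 and 16.17. Its response was smaller by 1.34 ± 0.08 (adjusted p = 0.000212, and 0.00917 under the 75th percentile scaling) and its −LH level was higher by 1.70. Map7d2, a microtubule-binding protein, read 4.70 and 4.5 and then 7.53, 7.39 and 7.28 in siPINC cells, and 3.58 and 3.38, not well above background, and then 8.2, 8.28 and 8.2 in siNEG cells. Its fitted difference, -1.94 ± 0.20 (adjusted p = 0.00639, and 0.0154 under the 75th percentile scaling), was in part measured against background. For Wif1, a secreted Wnt inhibitor, the difference was -1.56 (lost without siPINC +LH replicate 3), and for Cxcl17 -1.23 (lost without 3 of 10 arrays). Afp, the fetal serum protein, was above background only on the siPINC −LH arrays (5.24 and 5.13) and was at least 2.37-fold lower with hormones. Its difference of -2.24 (adjusted p = 0.000909) was therefore measured against values at background, and it did not pass under the 75th percentile scaling (0.166).

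Of the 16 milk protein genes Pip alone passed this test. Csn2 rose in siNEG cells from 1.97 on both arrays to 10.98, 10.76 and 11.08, and its fitted difference, with both −LH groups at background, was 0.25 ± 0.23 (adjusted p = 0.924). Cish differed by -0.03 ± 0.12 and Stat5a by -0.05 ± 0.08. Elf5 rose more in siPINC cells, 2.34 against 1.73 (difference 0.61, adjusted p = 0.0426), but the call was lost under the 75th percentile scaling (0.206), with the slide term (0.0589) and without any 1 of 9 arrays. Edn1 rose less (difference -0.74, adjusted p = 0.0285), and that call was lost under the first 2 settings too (0.113 and 0.0589).

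Against siPINC1.0/1.6, which spares DCR2, more genes differed. Here 2.91% passed (586 of 20169, 185 more positive and 401 more negative in siPINC cells). By probe the count was 861, 413 under the 75th percentile scaling, and 582 to 1210 with 1 array left out. Of the 861, 292 were positive, but without siPINC1.0/1.6 −LH replicate 1 it was 735 of 1210 and without its replicate 2 559 of 1001, so the balance of directions rested on these arrays. The naming rule for this comparison admits genes measurable in 1 of the 4 groups, and several of the largest differences came from the other siRNA.

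Krt15 read 12.38 and 12.39 and then 15.28, 15.13 and 15.20 in siPINC cells, but 9.28 and 9.32 and then 15.40, 15.45 and 15.49 in siPINC1.0/1.6 cells. Both ended close together, and the lower −LH level made the difference, -3.33 ± 0.11 (adjusted p = 1.9e-06). Pgm5, a phosphoglucomutase-like protein of cell junctions, rose by 3.30 against 6.20 (difference -2.91). Col3a1, a fibrillar collagen, read 10.20 on both −LH arrays and then 10.83, 10.23 and 10.18 in siPINC cells and was not called, while it rose by 4.11 in siPINC1.0/1.6 cells (difference -3.90). For Rassf9 the difference was -2.85, its own rise of 0.90 being lost with the slide term and without −LH replicate 2 or +LH replicate 1, and its siPINC1.0/1.6 −LH values not well above background. For the stem cell marker Lgr5 it was -2.57, with an adjusted p of 0.189 under the 75th percentile scaling, and it was above background only on the siPINC −LH arrays of the 4 groups.

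In the positive direction Il1a and Mettl7b, at 3.77 and 3.45, were not well above background on any siPINC array and fell in siPINC1.0/1.6 cells from 6.0 and 5.20, and from 5.57 and 5.13, to background. The cytokine Csf3 (3.39) was likewise below background on all siPINC arrays. C1s2, a complement protease, and the kallikrein Klk1b4 rose in siPINC cells, at least 3.39-fold and 5.35-fold. Their fitted differences, 3.08 and 2.96, were measured against −LH values at background. Of the genes described above, Edn1 rose more in siPINC cells (3.71 against 1.57, difference 2.14 ± 0.11), as did Krt18 (1.18), and Pip rose less (-1.40 ± 0.08). Csn2 read 9.69, 9.48 and 10.06 on the siPINC1.0/1.6 +LH arrays, below all 3 siPINC +LH arrays. Both −LH groups were at background, so that its fitted difference of 1.42 ± 0.23 (adjusted p = 0.0124) compares the +LH signals and gives no size for the 2 rises. Csn3 rose less too (-1.24, adjusted p = 0.0277), a call lost without 7 of 10 arrays.

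For the interferon genes this comparison, which shares the siPINC arrays with that against siNEG, gave small differences. Ifit1 rose by 3.30 in siPINC1.0/1.6 cells, and the difference was 0.04 ± 0.20 (adjusted p = 0.988). For Isg15 it was -0.37 ± 0.26 and for Oasl1 0.36 ± 0.15. In that list 1 of 18 passed, Stat2 (-0.55), and not under the 75th percentile scaling (adjusted p = 0.122). Mitosis genes fell by a median of 1.72 in siPINC1.0/1.6 cells, less than in siPINC cells, and Bub1b and Ccnb2 differed by -0.42 and -0.40 (adjusted p = 0.0342 and 0.0388), calls lost with the slide term (0.0534 and 0.0548) and under the 75th percentile scaling (0.212 and 0.448).

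**Figure D4:**
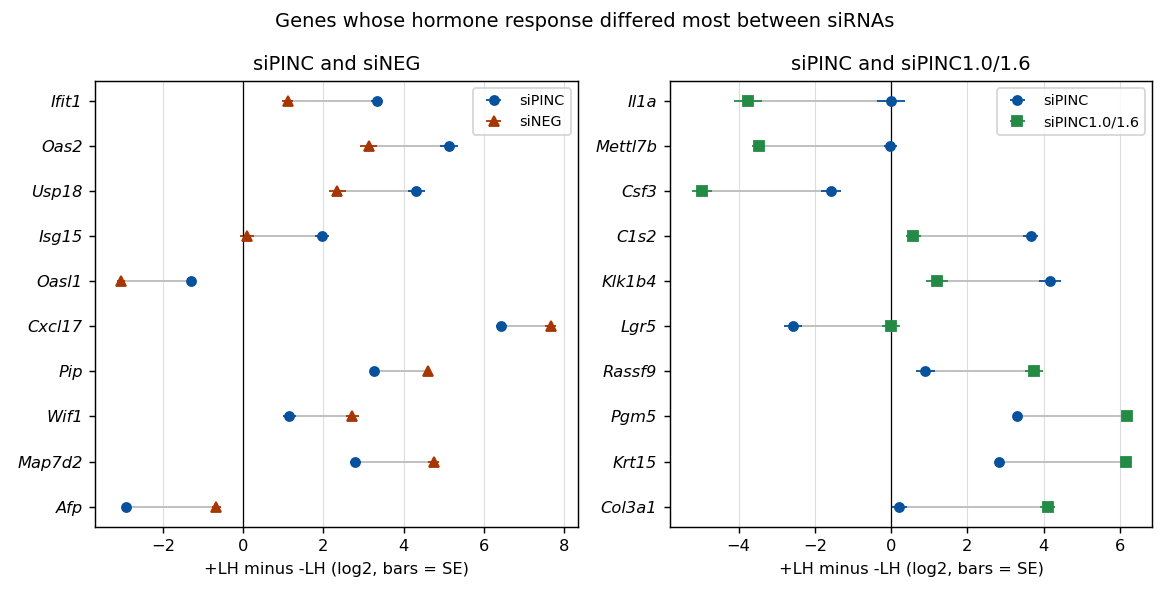
Hormone response (log2, +LH minus −LH, with SE bars) in each siRNA, joined by a line, for genes whose responses differed most. One side shows siPINC and siNEG, the other siPINC and siPINC1.0/1.6, each with the 5 most positive and 5 most negative differences. Interferon genes hold the positive differences from siNEG, and Pip, Wif1, Map7d2, Afp and Cxcl17 the negative ones.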

How the data were processed

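RNA of 24 HC11 samples was hybridised to Agilent 1-colour SurePrint mouse arrays. The authors deposited scanner output of Agilent Feature Extraction 11.0.1.1 (array build mm9), whose processed signal intensity is background-subtracted, and a series matrix of log2 values (medians 5.230 to 5.248), which ranked probes as the median minus the background signal did. Controls were removed, and processed signals were log2-transformed and quantile normalized over all 24 arrays. Outlier spots (193 to 212 per siPINC array) were then left out and the rest averaged per probe (59305 spots, 55681 probes).

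A single fit with limma 3.58.1 (R 4.3.3; 15 siRNA arrays, 6 groups, no covariate, residual degrees of freedom 9, prior 1.14) gave the hormone response and its differences between siRNAs, with Benjamini-Hochberg adjustment over all probes and a threshold of 0.05. The array number limits the precision. Symbols came from the study's supplementary tables (455 probes) and RefSeq (26161). In each gene the tables' probe, or else the brightest, stands for it. Genes were named by rule: the 10 largest rises and falls measured on all 5 arrays, up to 5 bounded folds each way, 5 each way per difference, and list members. Rbl1, Phlda1, Ier3 and some further list members were added after their values were seen, and so were Oas2 beside the interferon genes and the promoters shown. Members and the 30 lists were chosen with earlier results of these data known. On data made with known changes (100 probes each of 55681, drawn from the detected probes), 62% of changes of 1 (log2) and 87% of changes of 2 were called for the siPINC response, 44% and 80% for its difference from siNEG, with 0 wrong signs. All other probes were given no hormone response in siPINC or siNEG cells, and no slide effect was added. The arrays differ from this setting, so these shares are not the recovery in the data. Alternatives covered scaling, background (normexp, offset 50), a filter on dim probes, the methods' t-test, the prior, the arrays fitted, slide, replicate block, matrix values and leaving out each array. Figures were drawn with matplotlib 3.10.9.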

Additional observations from a re-analysis of the deposited data

Results flagged for a closer look

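Each value below is a difference between hormone responses on the log2 scale that passed an adjusted p of 0.05 in the limma fit. No explanation was weighed.

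Larger or less negative in siPINC than in siNEG cells were the responses of the interferon genes Ifit1 (2.23), Oas2 (1.99), Usp18 (1.97), Isg15 (1.87), Oasl1 (1.76), Irf7 (1.66), Gbp3 (1.40), Ifit3 (1.38) and Irf9 (0.94). The same held for the cell cycle genes Ccnb2 (0.73), Bub1b (0.71), Mki67 (0.66), Top2a (0.65) and Mcm6 (0.64), and for Elf5 and Krt5 (0.61 each). Krt5, a basal keratin, fell from 16.33 and 16.37 to 14.32, 14.18 and 14.20 in siPINC cells and by 2.72 in siNEG cells, and this difference was lost with the slide term (adjusted p = 0.0676) and under the 75th percentile scaling (0.152). In the negative direction stood Afp (-2.24), Map7d2 (-1.94), Wif1 (-1.56), Pip (-1.34), Cxcl17 (-1.23) and Edn1 (-0.74).

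Against siPINC1.0/1.6 cells the positive differences were those of Il1a (3.77), Mettl7b (3.45), Csf3 (3.39), C1s2 (3.08), Klk1b4 (2.96), Edn1 (2.14), Csn2 (1.42), Krt18 (1.18), Xdh (0.99), Ocln (0.96), Ogn (0.73) and Mal (0.64). Negative differences among matrix, keratin and secreted products were those of Col3a1 (-3.90), Krt15 (-3.33), Cyp2f2 (-1.98), Col1a1 (-1.46), Pip (-1.40), Dcn (-1.30), Csn3 (-1.24), Igfbp3 (-1.05), Postn (-0.92), Cxcl17 (-0.89), Igfbp5 (-0.88) and Wfdc18 (-0.68). Among signalling, surface and cell cycle genes they were Pgm5 (-2.91), Rassf9 (-2.85), Lgr5 (-2.57), Etv5 (-1.18), Itgb3 (-1.15), Ly6a (-1.01), Dusp6 and Ccne1 (-0.65 each), Mcm5 (-0.59), Stat5a (-0.45), Bub1b (-0.42) and Ccnb2 (-0.40). Afp and Map7d2 (against siNEG) and Il1a, Mettl7b, Csf3, C1s2, Klk1b4, Csn2, Ogn, Rassf9 and Lgr5 (against siPINC1.0/1.6) were not well above background in at least 1 of the groups compared. Their values are therefore no measured size.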

How the results depend on the processing

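The hormone response of siPINC cells called between 10536 (slide term) and 16328 probes over 17 alternatives, 12946 to 14564 without any 1 array, all within 1.5 times of 15610. With the slide term 9055 of these probes were called in the same direction and 102 had the opposite sign. The methods' t-test gave 11831 after Benjamini-Hochberg adjustment and 5724 at the threshold of p and fold that the methods used. The difference from siNEG, 280 probes, was 7 under the 75th percentile scaling, 427 with bright probes only, 451 with a trended and robust prior, 66 with only the arrays compared, 173 with the slide term over siRNA arrays, 432 with it over all arrays, 4 with the series matrix values and 105 to 656 without 1 array. The difference from siPINC1.0/1.6, 861 probes, was 413, 1318, 1344 and 352 under the percentile scaling, bright probes, the trended prior and the matrix values, 1295 with the slide term over all arrays, and 582 to 1210 without 1 array. The share of positive differences from siNEG, 72.5%, was 57.1% under the percentile scaling, 54.5% with only the arrays compared and 51.7% with the replicate block. The causes were not tested. Replicate numbers did not pair the samples (deviations of same-numbered −LH and +LH arrays correlated at 0.084 and -0.065), and a replicate block gave 14386, 29 and 533 probes for the hormone response and the 2 differences. Among the named genes followed through these settings, no called hormone response or difference changed sign. Ldha, Pgk1, Gpi1 and Atf4, called and turned in sign under the 75th percentile scaling, were not among the genes followed. In 3042 cases responses kept their side of the threshold, 86 were weaker, 12 stronger, and 23 uncalled values moved; 366 differences kept theirs and 54 were weaker. Genes of low signal carry a bound at most, and 29065 probes without a symbol were counted but not named.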
